A study of Apis mellifera with 2 samples.

Results

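Nuclei rich in Dat, Stg-1 and LOC726252 were taken from 2 single-nucleus RNA libraries of forager honeybee (Apis mellifera) brains. In each library, barcodes with 200 to 5000 detected genes were ranked by the summed UMIs of these 3 genes over all UMIs of the barcode, and the top 1000 were kept. A UMI (unique molecular identifier) marks 1 captured RNA molecule. This gave 2000 ranked nuclei out of 39944, of which 1000 out of 19945 came from the BRC library and 1000 out of 19999 from the ddH2O library. The nuclei were chosen by the measured values of these 3 genes, so these values are a description and not a finding. The working name of the set was neurons rich in Dat and Stg-1. The data went against this name in BRC, where the ranked nuclei held less RNA of pan-neuronal genes than the rest of their library, and the nuclei are therefore called by the ranking throughout.

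The study asked how activation of dopamine receptors acts on the forager brain. The BRC library came from foragers of colonies treated with bromocriptine, which activates dopamine receptors of the D2-like class, and the ddH2O library from foragers of colonies treated with water. The sample titles say that the bees were fed, whereas the treatment label gives a full-body spray and the methods a mist over the whole colony. Each condition is 1 library of pooled brains (15 foragers per library by the labels, a larger pool from several colonies by the methods), with compound eyes and ocelli removed before nuclei were extracted, so treatment, preparation and sequencing of a library cannot be told apart.

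Dat, which is also listed under the synonym NT-2, encodes the transporter that returns released dopamine into dopaminergic neurons. Those neurons also make dopamine, in a pathway that starts with tyrosine hydroxylase (TyHyd), and load it into vesicles through the vesicular monoamine transporter Vmat. Dopamine from this pathway has another known use in insects, where epidermal cells convert it to the compounds that harden and darken the cuticle. Stg-1 is named for stargazin, a family of auxiliary subunits of glutamate-gated channels, and LOC726252 is known here by its identifier only. In Amel_HAv3.1, Dat lies on linkage group 1 (5335036 to 5350924), Stg-1 on linkage group 14 (4915741 to 4937551) and LOC726252 on linkage group 3 (9469876 to 9518749), all as protein-coding genes. A long non-coding RNA gene, LOC100578115, lies inside Dat at 5344736 to 5346635.

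In BRC the ranked nuclei had a median depth of 2165 UMIs, with 1183 genes detected, and the rest of that library 2099 UMIs, with 1058 genes. In ddH2O their median depth was 3644 UMIs, with 1628 genes detected, and that of the rest 3308 UMIs, with 1598 genes. Depth therefore differed more between the libraries than between ranked nuclei and the rest. The median mitochondrial share was 0.0868% in the ranked nuclei of BRC and 0.0800% in those of ddH2O, and 35 and 155 of the ranked nuclei lay above the 90th percentile of UMIs of their library. The libraries shared 120 cell barcodes, and no barcode was ranked in both. With 1 library per condition no test across samples was possible. Levels are CPM, the UMIs of a gene summed over nuclei and scaled to the sum of all their UMIs (counts-per-million), and intervals in parentheses are 95% intervals that cover counting error only.

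The 3 genes did not contribute alike in the 2 libraries. LOC726252 held 91.7% of the ranking UMIs in BRC and 38.8% in ddH2O, while Stg-1 held 0.367% in BRC and 56.3% in ddH2O. Dat held 7.93% of these UMIs in BRC and 4.85% in ddH2O. The ranking thus chose LOC726252-rich nuclei in BRC and nuclei rich in Stg-1, LOC726252 or both in ddH2O.

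LOC726252 was at 8466 CPM in the ranked nuclei of BRC, against 45.3 CPM in the rest of that library, and 956 of the 1000 ranked nuclei had a UMI of it. In ddH2O it was at 510.6 CPM in the ranked nuclei, against 37.3 CPM in the rest, with a UMI in 655 nuclei. Dat was at 731.7 CPM in the ranked nuclei of BRC, against 16.0 CPM in the rest, and was found in 650 nuclei. The ranked nuclei of ddH2O had 63.9 CPM of Dat, against 2.98 CPM in the rest, and only 99 of them had a UMI of it. Stg-1 went the other way between libraries. It stood at 33.9 CPM in the ranked nuclei of BRC, with a UMI in 37 of them, against 19.4 CPM in the rest. In ddH2O it stood at 741.5 CPM, with a UMI in 777 nuclei, against 76.4 CPM in the rest. A name that joins Dat and Stg-1 therefore described few nuclei of either library.

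**Figure D1:**
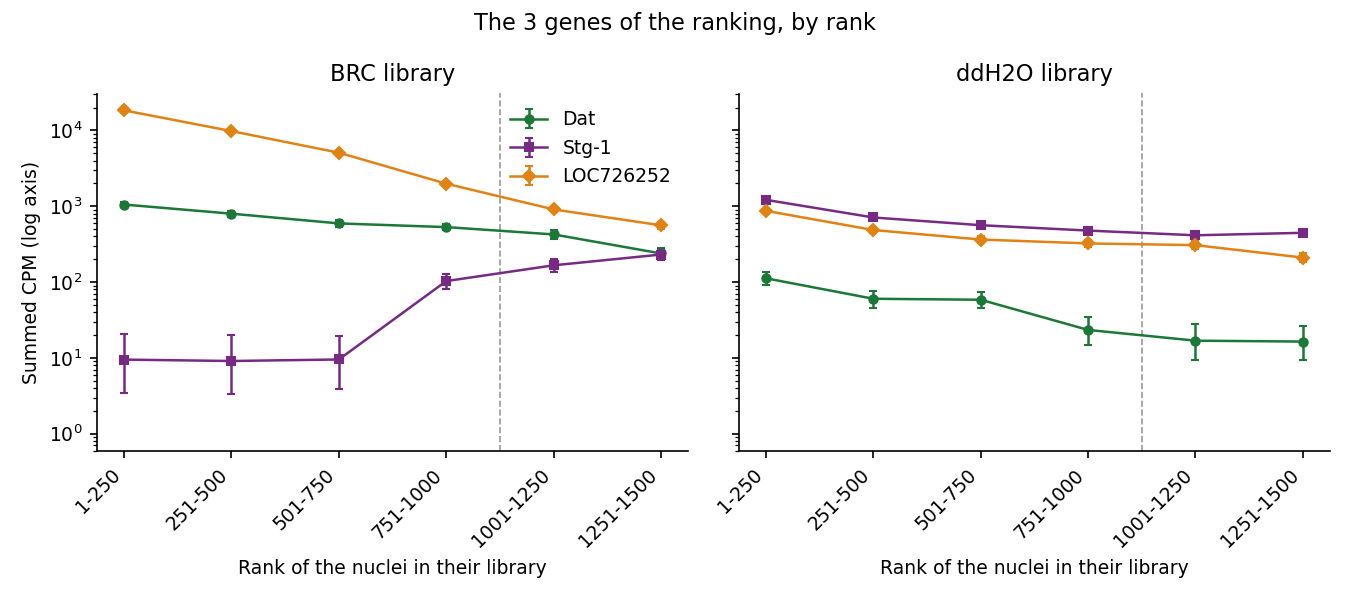
CPM of Dat, Stg-1 and LOC726252 (log axis, with 95% Poisson intervals) summed over bins of 250 nuclei in order of rank, for BRC on the left and ddH2O on the right, with a dashed line between ranks 1000 and 1001. In BRC, LOC726252 ran from 18388 CPM in the first bin to 1983 CPM in the fourth, and Stg-1 stood at 9.49, 9.10 and 9.53 CPM up to rank 750, whereas in ddH2O Stg-1 ran highest in every bin.

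Counted nucleus by nucleus, Dat and LOC726252 without Stg-1 made up the most frequent combination in BRC (594 nuclei), followed by LOC726252 alone (332) and Dat alone (37). In ddH2O the most frequent were Stg-1 with LOC726252 (404 nuclei), Stg-1 alone (307) and LOC726252 alone (190). All 3 genes were found together in 19 nuclei of BRC and 43 of ddH2O, and at least 2 of them in 624 and 488. At the edge of the selection, the nucleus at rank 1000 had 8 ranking UMIs out of 4504 in BRC (1776 CPM), and the next had 5 out of 2832 (1766 CPM). In ddH2O the nuclei at ranks 1000 and 1001 both stood at 769.5 CPM, with 4 UMIs out of 5198 and 2 out of 2599. The selection in ddH2O was thus decided by 2 to 4 UMIs at its edge, and the median ranked nucleus had 19 ranking UMIs in BRC and 4 in ddH2O.

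To see which of the 3 genes occur in the same nuclei without using a gene to find itself, each was measured in the top 1000 barcodes ranked on the other 2. In BRC, Dat stood at 627.1 CPM (597.9 to 657.3) in the barcodes ranked on Stg-1 and LOC726252, against 19.96 CPM in the rest. LOC726252 stood at 5199 CPM in the BRC barcodes ranked on Dat and Stg-1, against 213.4 CPM in the rest. Stg-1 was not higher in BRC (log2 ratio -0.58, -1.09 to -0.11), with 13.5 CPM (9.53 to 18.7) in the barcodes ranked on Dat and LOC726252, against 20.2 CPM in the rest. In ddH2O all 3 genes were higher in the barcodes ranked without them. Dat was at 23.7 CPM (19.2 to 29.0) against 5.25 CPM, Stg-1 at 222.3 CPM (207.6 to 237.8) against 106.2 CPM, and LOC726252 at 141.9 CPM (130.7 to 153.9) against 58.1 CPM. Dat and LOC726252 were thus each higher in barcodes ranked without them in both libraries, and Stg-1 in ddH2O. The difference between libraries was not tested. Of the 216 barcodes of BRC with 2 or more UMIs of Stg-1, 28 also had 2 or more of LOC726252, as did 199 of 1529 in ddH2O. Over all filtered barcodes, 6.97% in BRC and 4.70% in ddH2O had 2 or more UMIs of LOC726252.

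Pan-neuronal genes, which the ranking did not use, were examined next. They were fne, an RNA-binding protein of the ELAV family, nSyb, the vesicle SNARE of synaptic release, and Syt1, its calcium sensor. In BRC, fne was at 301.4 CPM in the ranked nuclei and 609.0 CPM in the rest, nSyb at 308.7 and 520.1 CPM, and Syt1 at 134.8 and 243.3 CPM. Each was thus lower in the ranked nuclei, and their sum differed by -0.88 on the log2 scale (-0.95 to -0.82). In ddH2O, fne was at 3043 CPM in the ranked nuclei and 2031 CPM in the rest, nSyb at 2509 and 2109 CPM, and Syt1 at 1024 and 1075 CPM. Their sum was higher in the ranked nuclei there, by 0.33 (0.32 to 0.35). The direction in BRC depended on how many nuclei were taken and on LOC726252. With the top 2000 barcodes it turned to 0.18, and with a ranking on Dat and Stg-1 alone to 0.38.

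At an equal depth of 1000 UMIs per nucleus, 35.4% (32.4 to 38.5) of the ranked nuclei of BRC had a UMI of fne, nSyb or Syt1, against 58.6% of the rest. Without thinning these shares were 57.8% and 74.9%. For a reference point, the 1000 BRC barcodes ranked on the Kenyon cell genes trio, PLCe and mub gave 98.7% at a median of 1760 UMIs, and those ranked on the glial genes repo and bdl gave 35.7% at a median of 1664 UMIs (all thinned to 1000). The share in the ranked nuclei of BRC was thus close to that in barcodes chosen for glial genes. It was above the 23.2% and 20.1% of the BRC barcodes ranked on Lim1 and on Vmat, which had median depths of 21529.5 and 13779 UMIs before thinning. A Lim1 UMI was found in only 3.3% of the ranked nuclei of BRC and 1.25% of the rest. The 1000 barcodes ranked on Lim1 there were thus mostly deep barcodes without Lim1. Their Lim1 level was 14.3 CPM, against 14.6 CPM in the ranked nuclei, so they are no reference for Lim1 nuclei. In ddH2O the share was 99.9% in the ranked nuclei and 97.3% in the rest, but the barcodes ranked on glial genes reached 87.9%, so a single UMI says little there. With 3 or more of these UMIs as the criterion, the shares were 6.2% of the ranked nuclei and 31.7% of the rest in BRC, and 93.4% of the ranked nuclei and 83.8% of the rest in ddH2O.

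**Figure D2:**
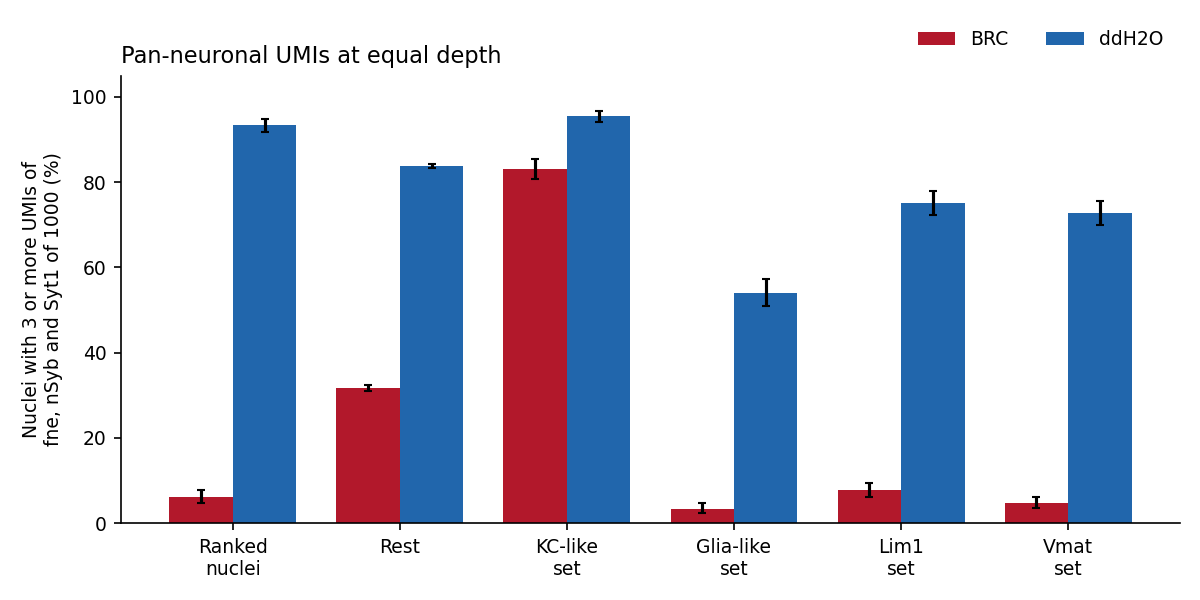
Share of nuclei (%) with 3 or more UMIs of fne, nSyb and Syt1 after each nucleus was thinned to 1000 UMIs, with 95% Clopper-Pearson intervals, for the ranked nuclei, the rest of the library and 4 sets of 1000 barcodes ranked on other genes, in BRC (red) and ddH2O (blue). The ranked nuclei of BRC stood at 6.2%, between the Vmat set (4.7%) and the Lim1 set (7.7%, a set made up mostly of deep barcodes with no Lim1 UMI), and those of ddH2O at 93.4%, between the rest (83.8%) and the KC-like set (95.6%).

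Lim1, a LIM-homeobox factor, was rare in both libraries. Its level was 14.6 CPM (10.4 to 19.8) in the ranked nuclei of BRC, against 3.52 CPM in the rest, and 24.0 CPM (19.5 to 29.3) in those of ddH2O, against 9.89 CPM in the rest. At equal depth 1.4% of the ranked nuclei of BRC and 2.3% of those of ddH2O had a UMI of it, against 0.428% and 0.979% of the rest. The Lim1 level was thus higher in the ranked nuclei than in the rest of both libraries, but few of the ranked nuclei showed it. Vmat was at 82.7 CPM (72.3 to 94.2) in the ranked nuclei of BRC, against 528.1 CPM in the rest, and at 91.1 CPM (82.1 to 100.8) in those of ddH2O, against 64.9 CPM in the rest. Summed levels weigh deep barcodes more, and the 1000 BRC barcodes richest in Vmat had a median of 13779 UMIs. At equal depth 4.3% of the ranked nuclei of BRC had a UMI of Vmat, against 11.8% of the rest. The log2 ratio in BRC ranged from -4.18 to -0.32 over the alternative settings (no CPM added). Of the 1000 ranked nuclei, 7 in BRC and 80 in ddH2O were among the 1000 barcodes of their library richest in Vmat, which were 5.01% of the barcodes of BRC and 5.0% of those of ddH2O.

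Across genes, the ranked nuclei were compared with the rest of their own library on 9583 genes with at least 100 UMIs in each library. Log2 ratios of single genes between ranked nuclei and the rest are given with 5 CPM added to both values. In BRC, 456 genes (4.76% of those compared) were 2-fold or more higher in the ranked nuclei and 557 (5.81%) lower. In ddH2O, 35 genes (0.365%) were higher and 124 (1.29%) lower. Only 3 genes (0.0313%) were higher in both, namely TyHyd, grh and LOC102656661, and 39 (0.407%) were lower in both. Another 14 genes (0.146%) were higher in BRC and lower in ddH2O, and 5 (0.0522%) the reverse. Among the 50 genes with the highest ratio in each library, TyHyd and grh were the 2 that both libraries shared. Since the ranking chose these nuclei, the counts describe them and carry no test.

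**Figure D3:**
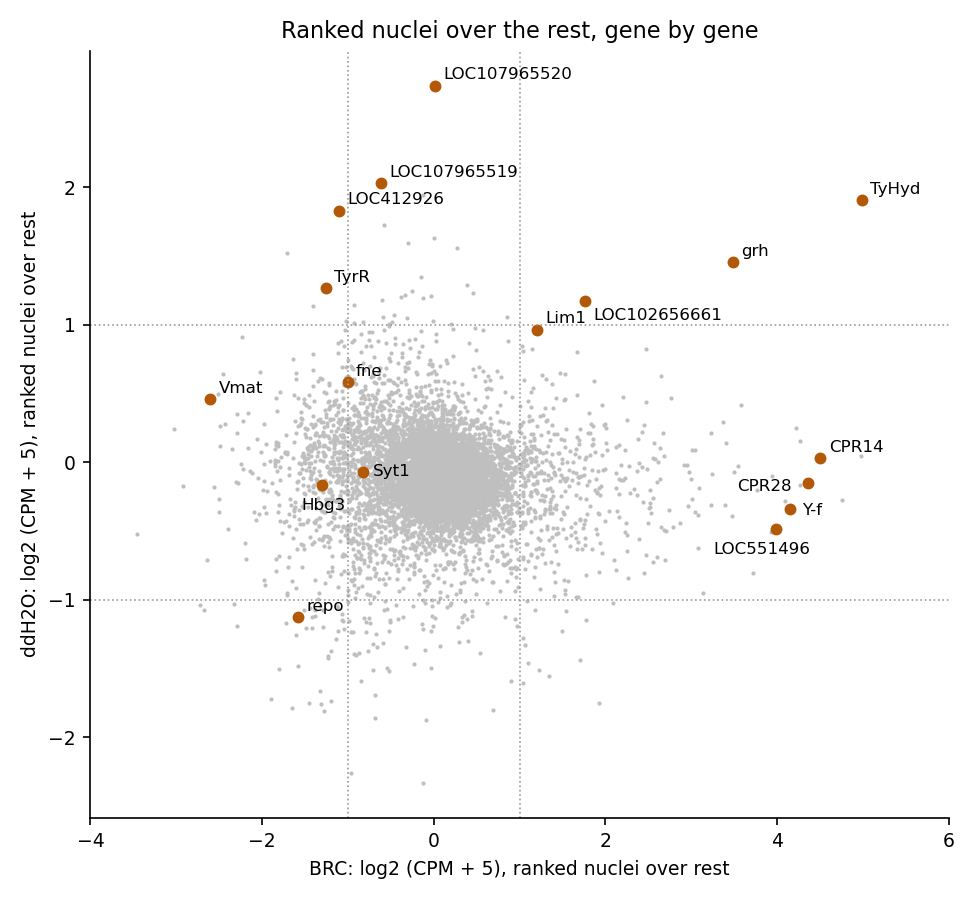
Log2 ratio of ranked nuclei over the rest (5 CPM added to both values) in BRC (x axis) and in ddH2O (y axis) for 9583 genes (grey), with named genes in brown and dotted lines at 2-fold. TyHyd and grh lie to the upper right, the cuticular protein genes CPR14 and CPR28 lie far right at a ddH2O value near 0, and LOC107965520 and LOC412926 lie at the top without being higher in BRC.

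TyHyd was at 1722 CPM in the ranked nuclei of BRC, against 49.5 CPM in the rest (log2 ratio 4.99). In ddH2O it was at 68.5 CPM in the ranked nuclei, against 14.7 CPM in the rest (1.90). It was thus higher in the ranked nuclei of both libraries, and a UMI of it was found in 31.2% of those of BRC and 10.8% of those of ddH2O, against 5.25% and 4.51% of the rest. The grh gene (LOC411079) encodes grainyhead, a transcription factor best known in flies for its part in epidermis and cuticle, and served as the epithelial marker of the study. It was at 2299 CPM in the ranked nuclei of BRC, against 201.2 CPM in the rest (3.48), and at 189.2 CPM in those of ddH2O, against 65.8 CPM in the rest (1.46). At equal depth 79.0% (76.3 to 81.5) of the ranked nuclei of BRC had a UMI of grh, against 16.3% of the rest and 7.1% of the KC-like set. The share was 13.9% (11.8 to 16.2) in the ranked nuclei of ddH2O and 5.96% in the rest.

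The genes that led the ranked nuclei of BRC included cuticular protein genes, named here after their values were seen. CPR22 and CPR14, which encode cuticular proteins with a chitin-binding domain of the Rebers and Riddiford type and lie near each other on linkage group 2, were at 629.7 and 3793 CPM in the ranked nuclei of BRC, against 4.19 and 162.4 CPM in the rest. Another such gene, CPR28, was at 444.9 CPM, against 17.0 CPM in the rest. Y-f, of the yellow family known in flies for its part in pigmentation, was at 1169 CPM, against 61.1 CPM in the rest. LOC551496, which has only an identifier, reached 9748 CPM, with a UMI in 97.1% of the ranked nuclei, against 609.4 CPM and 66.2% in the rest. None of these 5 genes was 2-fold higher in the ranked nuclei of ddH2O, where CPR22 had 1 UMI, CPR14 4.13 CPM and Y-f 106.9 CPM.

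As a list, the 27 genes of the CPR, CPF, Cpap3 and yellow families summed to 6297 CPM in the ranked nuclei of BRC, against 366.0 CPM in the rest, a log2 ratio of 4.10 (4.08 to 4.13). CPR14 alone gave 3793 CPM of this sum in the ranked nuclei, and Y-f, CPR22 and CPR28 gave 1169, 629.7 and 444.9 CPM. The list was put together after the values were seen and supports nothing by itself. Of its 10 members with enough UMIs in each library, 4 were 2-fold higher in BRC and none lower (4.76% and 5.81% of all genes compared), and 4 of the 27 had no UMI in the ranked nuclei of BRC. In ddH2O the list summed to 202.1 CPM in the ranked nuclei, of which Y-f gave 106.9 CPM, against 245.8 CPM in the rest. None of the 10 was past 2-fold there.

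The ranked nuclei of ddH2O were led by LOC107965520, at 615.5 CPM against 88.0 CPM in the rest (log2 ratio 2.74), and LOC107965519, at 210.3 CPM against 47.9 CPM (2.03). Both are annotated as long non-coding RNAs on linkage group 14, at 4921311 to 4924464 and 4924762 to 4931623, and so lie inside the Stg-1 gene. Whether reads were assigned by strand is not given in the sources used here, so their levels cannot be told apart from that of Stg-1, which chose these nuclei. LOC412926, a protein-coding gene on the same linkage group that a long non-coding RNA gene overlaps, was at 339.6 CPM in the ranked nuclei of BRC, against 736.5 CPM in the rest (-1.11). In ddH2O it was at 14508 CPM in the ranked nuclei, against 4081 CPM in the rest (1.83). TyrR, a receptor for tyramine, was at 53.2 CPM in the ranked nuclei of BRC, against 134.4 CPM in the rest (-1.26), and at 1209 CPM in those of ddH2O, against 499.7 CPM in the rest (1.27). Both genes were thus higher than the rest in the ranked nuclei of ddH2O and lower in those of BRC. Ks-1, a nuclear non-coding RNA described from honeybee Kenyon cells, lies at 15831228 to 15848759 on linkage group 1, inside TyrR (15771885 to 15849170), and was at 40.1 CPM in the ranked nuclei of BRC, against 114.7 CPM in the rest, and at 805.4 CPM in those of ddH2O, against 363.9 CPM in the rest. With the assignment of reads by strand not given, the levels of TyrR and Ks-1 cannot be told apart either. The lower values of LOC412926 and TyrR in BRC turned to higher ones with the top 2000 barcodes, at 0.48 and 0.15 without added CPM.

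Genes of synaptic signalling were considered as lists. Of 9 aminergic receptor genes, none was 2-fold higher and 3 were 2-fold lower in the ranked nuclei of BRC than in the rest (background 4.76% and 5.81%), and the list median was -0.91 where all compared genes had 0.10. In ddH2O 1 of them, TyrR (which holds Ks-1 inside it), was 2-fold higher and none lower, with a median of 0.18 where all genes had -0.13. The 5-HT2beta receptor gene stood at 182.7 CPM in the ranked nuclei of ddH2O, against 91.3 CPM in the rest, and 5-ht7 at 522.9 CPM, against 310.6 CPM. Of the dopamine receptor genes, Dop3 (D2-like, the receptor class on which bromocriptine acts) was at 75.1 CPM in the ranked nuclei of BRC, against 219.8 CPM in the rest, and at 565.7 CPM in those of ddH2O, against 497.4 CPM in the rest. Dop1 was at 51.7 CPM in the ranked nuclei of BRC, against 83.1 CPM in the rest, and at 188.7 CPM in those of ddH2O, against 231.3 CPM in the rest.

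The 17 ionotropic receptor genes had a median of -0.60 in BRC, where all genes had 0.10, with 6 of them 2-fold lower and none higher (5.81% and 4.76% of all genes). In ddH2O their median was 0.20, where all genes had -0.13, with none past 2-fold. In this list nAChRa7, a nicotinic acetylcholine receptor subunit, was at 108.2 CPM in the ranked nuclei of BRC, against 316.7 CPM in the rest, and at 1890 CPM in those of ddH2O, against 1403 CPM in the rest. The calcium channel gene Cac was at 299.5 CPM in the ranked nuclei of BRC, against 905.9 CPM in the rest, and at 2404 CPM in those of ddH2O, against 2640 CPM in the rest. Among the release genes, brp, of the active zone, was 2-fold lower in BRC (220.1 against 520.9 CPM), whereas Syx1A, a syntaxin, was at 1031 CPM in the ranked nuclei of BRC, against 712.7 CPM in the rest. The transporters VAChT and VGlut, which mark cholinergic and glutamatergic neurons, were at 13.5 and 7.65 CPM in the ranked nuclei of BRC, against 30.3 and 16.1 CPM in the rest. In ddH2O they were at 127.8 and 68.0 CPM in the ranked nuclei, against 135.4 and 58.6 CPM in the rest. Neither transporter thus set the ranked nuclei of ddH2O apart. Of 8 neuropeptide genes only 3 had enough UMIs. Pban, a precursor of pyrokinin-type peptides, was at 1.46 CPM in both the ranked nuclei and the rest of BRC. In the ranked nuclei of ddH2O it was at 27.2 CPM, against 5.39 CPM in the rest. A UMI of Pban was found in 2.6% of these ranked nuclei and 2.02% of the rest, so its higher level rested on few nuclei. Tk (tachykinin) was at 41.9 CPM in the ranked nuclei of BRC, against 116.3 CPM in the rest, and at 263.0 CPM in those of ddH2O, against 353.6 CPM in the rest.

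Markers of other cell types were also summed. The 12 glial genes summed to less in the ranked nuclei of both libraries, at 2342 CPM against 3090 CPM in the rest of BRC and 1819 CPM against 3124 CPM in the rest of ddH2O, and 4 of the 12 were 2-fold lower in each (5.81% of all genes in BRC and 1.29% in ddH2O). Among them repo, the glial homeobox factor, was at 82.4 CPM in the ranked nuclei of BRC, against 256.2 CPM in the rest, and at 182.9 CPM in those of ddH2O, against 406.1 CPM in the rest. In BRC moody, a receptor of barrier glia in flies, was 2-fold higher, at 61.9 CPM against 21.0 CPM in the rest, and Mdr49 (503.6 against 355.6 CPM) and ldgf4 (198.6 against 136.4 CPM) were higher by less. The 4 Kenyon cell genes summed to 2882 CPM in the ranked nuclei of BRC, against 5554 CPM in the rest, and to 6593 CPM in those of ddH2O, against 9401 CPM in the rest. In BRC the lower sum lay in PLCe (647.9 against 2280 CPM) and mub (1188 against 2196 CPM). There trio (387.0 against 394.9 CPM) and PKA-c1 (658.5 against 682.7 CPM) were near the rest. The 10 gland genes, Hbg3 and the royal jelly protein genes Mrjp1 to Mrjp9, were at 7283 CPM in the ranked nuclei of BRC, against 11179 CPM in the rest, and at 672.8 CPM in those of ddH2O, against 820.5 CPM in the rest. The 3 photoreceptor genes summed to 248.5 CPM in the ranked nuclei of BRC, against 513.3 CPM in the rest, and to 16.3 CPM in those of ddH2O, against 22.8 CPM in the rest. Each of the 2 clock genes listed, Per and Cry2, was lower in the ranked nuclei of both libraries. The 9 optic lobe genes had a median log2 ratio of -0.24 in BRC, with Lim1 2-fold higher and svp and vsx1 lower, and of -0.33 in ddH2O, with none past 2-fold. The most abundant of them, hth, was found in 91.1% of the ranked nuclei of BRC at equal depth, against 52.7% of the rest, at levels of 4168 and 3952 CPM, and in 27.9% of those of ddH2O, against 20.7% of the rest. The 2 OPN genes, acj6 and oaz, summed to 11.7 CPM in the ranked nuclei of BRC, against 29.1 CPM in the rest, and to 35.2 CPM in those of ddH2O, against 20.7 CPM in the rest, where oaz was at 25.02 CPM against 9.74 CPM.

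The nuclei were not uniform along the ranking. In BRC the summed level of fne, nSyb and Syt1 was 414.6 CPM in ranks 1 to 250, 579.1 CPM in ranks 251 to 500, 781.4 CPM in ranks 501 to 750 and 1150 CPM in ranks 751 to 1000, and it reached 2278 CPM in the 250 nuclei just outside. The grh level ran the opposite way, from 2872 CPM in the first bin to 1528 CPM in the fourth and 808.1 CPM just outside, and the cuticle and pigment list from 7801 to 3636 and 1199 CPM. TyHyd rose from 1169 CPM in the first bin to 2095 CPM (1992 to 2203) in the third. It was at 1996 CPM (1894 to 2102) in the fourth and 779.2 CPM just outside. In ddH2O the pan-neuronal sum stayed between 6425 and 6720 CPM over the 4 bins and was 6458 CPM just outside. TyrR was at 1482 CPM in the first bin, 1077 CPM in the fourth and 798.1 CPM just outside. Vmat was at 28.5 CPM in the first bin of BRC and 210.3 CPM in the fourth, and at 131.7 and 69.1 CPM in the same bins of ddH2O.

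**Figure D4:**
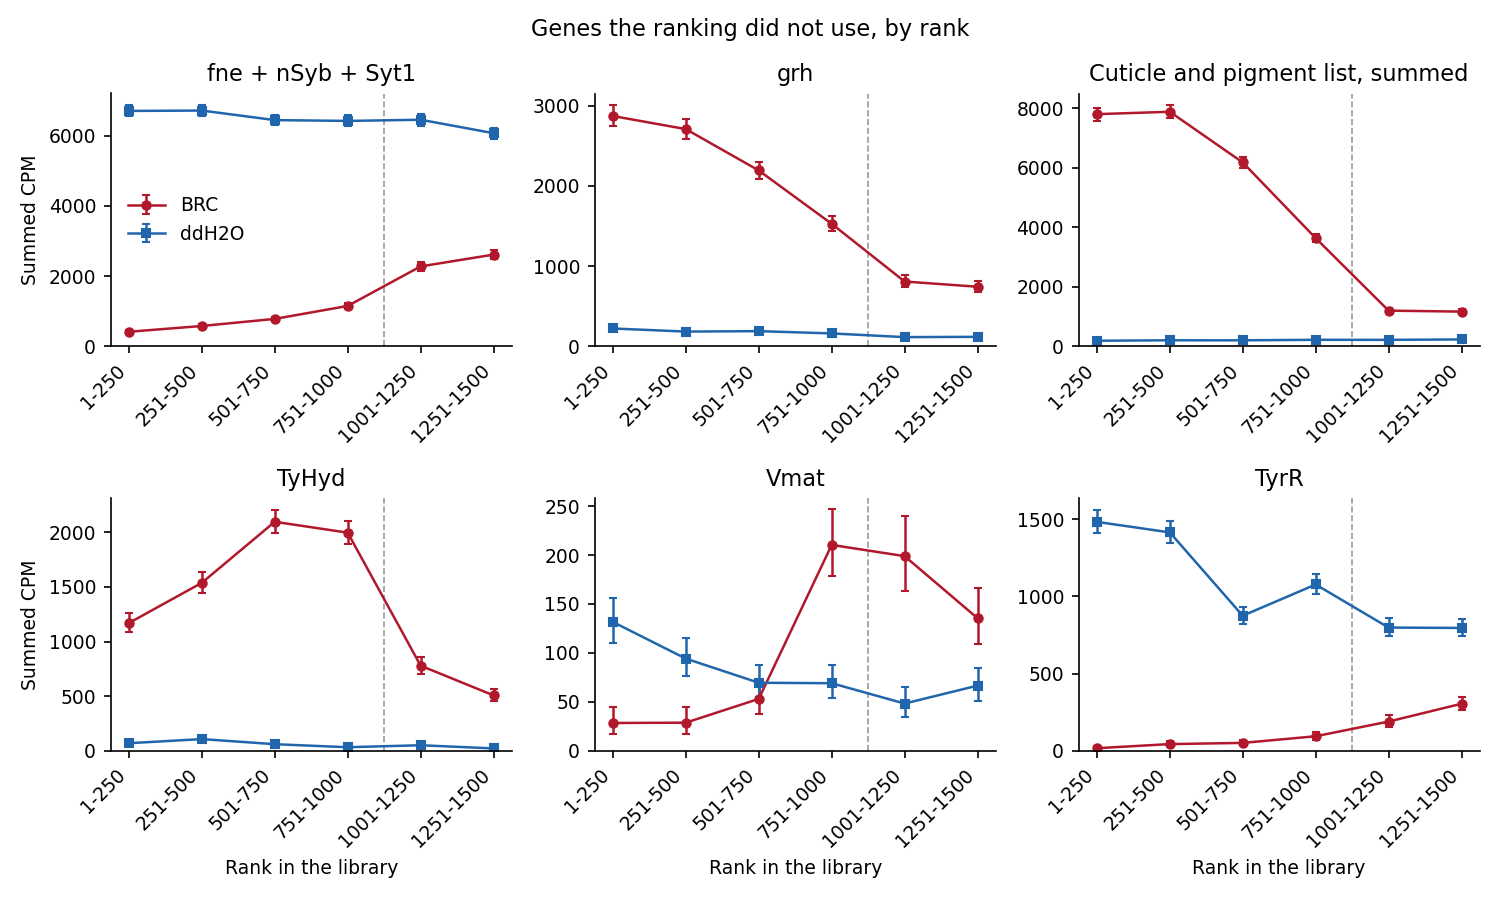
CPM (with 95% Poisson intervals) of the pan-neuronal sum, grh, the summed cuticle and pigment list, TyHyd, Vmat and TyrR in bins of 250 nuclei in order of rank, for BRC (red circles) and ddH2O (blue squares), with a dashed line between ranks 1000 and 1001. In BRC the pan-neuronal sum climbs with rank as grh and the cuticle list decline, and in ddH2O the pan-neuronal sum is 6075 CPM or more in all bins.

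Split by the gene of the ranking with most UMIs in a nucleus, the ranked nuclei of BRC comprised 911 led by LOC726252, 66 led by Dat and 9 led by Stg-1, with 14 ties. Those led by LOC726252 had 703.3 CPM of the pan-neuronal sum, 2308 CPM of grh and 3982 CPM of CPR14. Those led by Dat had 546.1 CPM of the pan-neuronal sum, 2466 CPM of grh and 643.0 CPM of CPR14, with the highest TyHyd level (2907 CPM). The 9 led by Stg-1 had a higher pan-neuronal sum, at 6426 CPM. Their grh level was 584.2 CPM (14 UMIs), lower than in the other 2 groups but above the 201.2 CPM of the rest of BRC. They had 83.5 CPM of CPR14 (2 UMIs) and no UMI of TyHyd, values that rest on few UMIs. In ddH2O 501 were led by Stg-1, 377 by LOC726252 and 44 by Dat, with 78 ties, and all of these groups were high in the pan-neuronal sum, at 6619, 6391 and 6856 CPM. The 44 led by Dat had 458.7 CPM of Vmat and 435.1 CPM of TyHyd, against 59.5 and 58.1 CPM in those led by Stg-1 and 94.1 and 44.97 CPM in those led by LOC726252. They also had the highest Dop3 level of the 3 groups, at 1276 CPM, whereas LOC412926 (19682 CPM) and TyrR (1611 CPM) were highest in those led by Stg-1.

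Dat, TyHyd and Vmat, which dopaminergic neurons use together, were then counted over all filtered barcodes with at least 2 UMIs of each gene asked for. In BRC, 159 barcodes had Dat and TyHyd, of which 132 were ranked nuclei, and these 159 had 1036 CPM of the pan-neuronal sum, 1922 CPM of grh and 172.1 CPM of Vmat. In ddH2O, 45 barcodes had both, of which 32 were ranked nuclei, with 6619 CPM of the pan-neuronal sum, 121.4 CPM of grh and 416.1 CPM of Vmat. Vmat with at least 2 UMIs was found in 9 of the 159 barcodes of BRC and 21 of the 45 of ddH2O. The barcodes with all 3 genes, 9 in BRC and 21 in ddH2O, had 3043 and 6722 CPM of the pan-neuronal sum, and 4 and 16 of them were ranked nuclei. Dat and LOC726252 are ranking genes, so how many barcodes with them were ranked nuclei was largely set by the selection. Of all barcodes with 2 or more UMIs of Dat, 462 of 653 in BRC and 72 of 96 in ddH2O were ranked. For LOC726252 these were 939 of 1390 and 496 of 940. In BRC, 899 barcodes had LOC726252 with grh and 772 of these were ranked nuclei, against 129 barcodes and 85 ranked nuclei in ddH2O. LOC726252 with CPR14 was found in 734 barcodes of BRC, 600 of them ranked, and in 0 of the 14 barcodes of ddH2O that had 2 or more UMIs of CPR14.

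The 62 ranked nuclei of BRC with 3 or more pan-neuronal UMIs at equal depth were also compared with the 934 of ddH2O, a choice made after the data were seen. Stg-1 was at 306.4 CPM (236.9 to 389.8) in the 62 and 753.8 CPM (726.5 to 781.8) in the 934, and LOC412926 at 2497 and 14456 CPM. The 62 nuclei still had 1323 CPM of grh (1174 to 1486) and 4614 CPM of the cuticle and pigment list, against 194.1 and 203.0 CPM in the 934. TyHyd was at 283.2 CPM in the 62, against 1670 CPM in the 292 ranked nuclei of BRC with 1 or 2 such UMIs and 1922 CPM in the 646 with none. The 62 nuclei were thus above those of ddH2O in grh and the cuticle list, but below the other ranked nuclei of BRC in TyHyd. The 62 nuclei had a median of 2736.5 UMIs, against 2165 over all ranked nuclei of BRC, and the part of doublets, which were not removed, was not tested.

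The ranked nuclei of the 2 libraries were set side by side on 4901 genes. In BRC over ddH2O, 1103 genes (22.5%) were 2-fold or more higher and 927 (18.9%) lower, with a median log2 ratio of 0.18. In the rest of the libraries the same genes gave 638 (13%) higher and 884 (18%) lower, with a median of -0.12. Of the genes past 2-fold in the ranked nuclei, 61.8% were past it in the same direction in the rest. That share concerns direction and not the size of a difference. The log2 ratio was above that of the rest by 1 or more in 596 genes, and below it by 1 or more in 510.

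Of the 8 genes with the highest ratio, 6 were also 2-fold higher in the ranked nuclei of BRC than in the rest. CPR22 had 1728 UMIs in the ranked nuclei of BRC and 1 in those of ddH2O, and CPR14 had 10408 and 17 (log2 ratio 9.84, and 5.37 in the rest). LOC406114 had 498.9 CPM in the ranked nuclei of BRC and 1.21 CPM in those of ddH2O, but its log2 ratio was higher in the rest (9.61) than in the ranked nuclei (8.68). Of the 8 genes with the lowest ratio, 5 were 2-fold higher in the ranked nuclei of ddH2O than in the rest. LOC412926 stood at -5.42, against -2.47 in the rest, LOC107965520 at -5.05, against -2.26, and TyrR at -4.51, against -1.90. The level of LOC107965520, 1 of these 5 genes, cannot be told apart from that of Stg-1, which it lies inside. Stg-1 held 56.3% of the ranking UMIs in ddH2O and 0.367% in BRC, so this ratio is tied to the selection. TyHyd was higher by 4.65 in the ranked nuclei of BRC than in those of ddH2O and by 1.76 in the rest, and grh by 3.60 and 1.61. The TyHyd value fell to 1.02 in the 19 and 43 nuclei with all 3 ranking genes, below that of the rest.

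The pan-neuronal sum was at 744.9 CPM in the ranked nuclei of BRC and 6576 CPM in those of ddH2O, a log2 ratio of -3.14 (-3.21 to -3.08), where the rest gave -1.93. Of the 8 aminergic receptor genes with enough UMIs, all were 2-fold lower in BRC, as were 12 of 13 ionotropic receptor genes, where 18.9% of all genes compared were (18% in the rest). Their sums differed by -3.09 and -2.99, against -1.35 and -1.42 in the rest. Vmat was at 82.7 CPM in BRC and 91.1 CPM in ddH2O (log2 ratio -0.14, -0.38 to 0.10), whereas it was higher in BRC by 3.03 in the rest. This value turned on the choice of nuclei, at -1.98 with the top 500, 0.53 with the top 2000 and 1.03 in nuclei with 3 or more pan-neuronal UMIs. The gland genes were higher in BRC by 3.44 in the ranked nuclei and by 3.77 in the rest, so this difference was not larger in the ranked nuclei. Among the 12 glial genes the sum differed by 0.36 in the ranked nuclei and by -0.02 in the rest. With 1 library per condition, the treatment, the preparation of a library and the kinds of nuclei that the ranking found cannot be told apart in these differences.

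**Figure D5:**
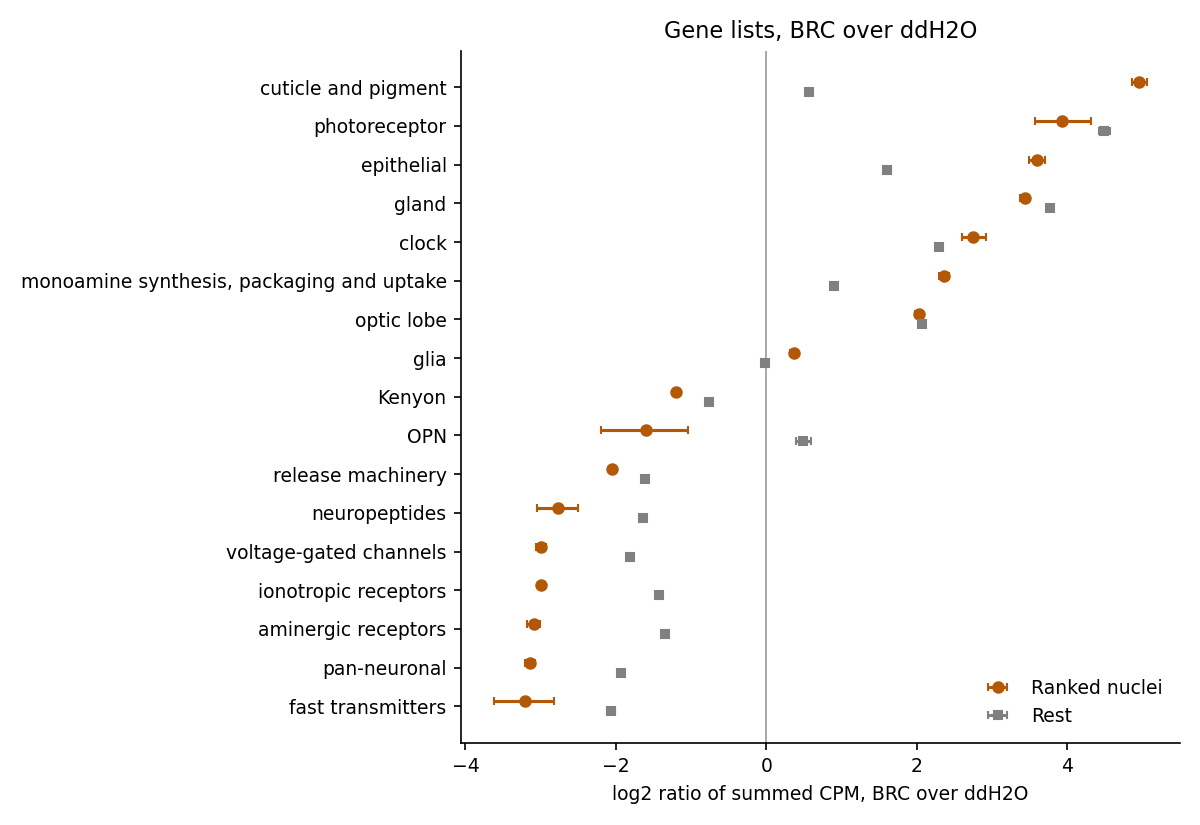
Log2 ratio of summed CPM, BRC over ddH2O, for each gene list in the ranked nuclei (brown circles) and in the rest (grey squares), with 95% exact conditional intervals for counting error. The cuticle and pigment list stands at 4.96 in the ranked nuclei and 0.57 in the rest, with CPR14 the largest part of its sum in the ranked nuclei of BRC. The pan-neuronal genes stand at -3.14 and -1.93. The optic lobe list stands at 2.03 and 2.07, a sum carried by hth (the list median is -0.29 in the ranked nuclei and -0.19 in the rest).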

How the data were processed

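RNA of nuclei from pooled forager brains was counted on the 10x Genomics platform in 1 BRC and 1 ddH2O library. The authors deposited raw UMI counts for each gene in each barcode, which Cell Ranger made against Amel_HAv3.1 without normalization, with 20000 barcodes each and totals of 76531513 UMIs (BRC) and 77047419 UMIs (ddH2O). The matrix headers name Cell Ranger 7.2.0 for BRC and 7.0.1 for ddH2O, so gene assignment may differ between libraries. The deposited barcode and feature lists hold names only.

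The 12245 genes listed for both libraries were used for CPM, with mitochondrial locus tags of BRC matched through the RefSeq table, and 390 features listed for BRC only were left out. Ranking used all UMIs, and ties went to the barcode with more UMIs. Doublets were not removed. Sums over nuclei have exact Poisson intervals, ratios exact conditional intervals and shares Clopper-Pearson intervals. PCR duplicates are removed by UMIs, and intervals cover counting error only. For shares, each barcode was thinned at random to 1000 UMIs. Genes were compared between ranked nuclei and the rest with at least 100 UMIs in each library and 5 CPM added, and between libraries with at least 100 UMIs over the ranked nuclei and a UMI in over 10% of those of either library. A count of 0 was set to a floor of 3 UMIs.

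The members and lists were chosen with earlier results of these data known. Genes named by rule were the 3 ranking genes, Lim1, Vmat, fne, nSyb and Syt1, those with the 12 highest and 6 lowest ratios shared by both libraries, the 8 highest and 8 lowest of BRC over ddH2O, and list members with at least 100 UMIs. The RefSeq table gives no product, so genes with an identifier only were left unnamed apart from a few, which were chosen after their values were seen, as were the cuticle and pigment list and the genes that led a single library. Lists planned by product were matched by symbol, so they hold 1 to 17 genes, and those for activity genes and further enzymes were not analysed here. Alternatives were other numbers of barcodes, the study's own filters, thinning before ranking, rankings on fewer genes, fewer deep barcodes, other scalings and other minimums. Tables were handled in pandas 2.3.3, intervals came from scipy 1.17.1, thinning from numpy 2.4.6 and plots from matplotlib 3.10.9, under Python 3.11.15. The ranking and the ratios were tested on simulated counts. The ranking genes were planted there at a share well above that at the edge of the ddH2O selection, so the test does not cover a selection by few UMIs.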

Additional observations from a re-analysis of the deposited data

Results flagged for a closer look

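A short list of named quantities was screened in the ranked nuclei against the rest of their library. Of these, 6 went opposite ways in BRC and ddH2O, each beyond its counting interval. Some were put on the list after their values were seen, so their directions were partly set by the choice. With 5 CPM added, 14 of 9583 genes (0.146%) were 2-fold or more higher in BRC and lower in ddH2O. Another 5 (0.0522%) went the reverse way. With 1 library per condition the difference between the libraries was not tested. The pan-neuronal sum had a log2 ratio of -0.88 (-0.95 to -0.82) in BRC and 0.33 (0.32 to 0.35) in ddH2O. Vmat had -2.67 (-2.87 to -2.49) in BRC and 0.49 (0.33 to 0.64) in ddH2O. Its BRC value ranged from -4.18 to -0.32 over the alternative settings. TyrR, whose level cannot be told apart from that of Ks-1 inside it, had -1.34 (-1.58 to -1.10) in BRC and 1.28 (1.23 to 1.32) in ddH2O. Dop3 had -1.55 (-1.76 to -1.35) in BRC and 0.19 (0.12 to 0.25) in ddH2O. LOC412926 had -1.12 (-1.21 to -1.02) in BRC and 1.83 (1.82 to 1.84) in ddH2O. The cuticle and pigment list, put together after the values were seen, had 4.10 (4.08 to 4.13) in BRC and -0.28 (-0.38 to -0.18) in ddH2O. These ratios are without added CPM and so differ slightly from those with 5 CPM added.

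Among the features listed for BRC only, Fabp-2 had 225 UMIs in the ranked nuclei of BRC (82.0 CPM, against 86.5 CPM in the rest) and TRNAK-CUU-3 had 11 (4.01 CPM, against 3.06 CPM in the rest). They were not compared with ddH2O here.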

How the results depend on the processing

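No paired analysis was possible because each condition has 1 library. The lower pan-neuronal sum in the ranked nuclei of BRC than in the rest (-0.88 on the log2 scale) turned to 0.18 with the top 2000 barcodes, 0.38 with a ranking without LOC726252 and 1.19 in nuclei with all 3 ranking genes (19 in BRC, 43 in ddH2O). In nuclei with 3 or more pan-neuronal UMIs it was 1.49. Those nuclei were chosen by this same sum, after seeing the data, so a higher value was set by the choice and shows nothing about direction. The other values of this BRC ratio were -1.45 (top 500), -1.35 (the study's filters), -0.35 (thinned before ranking), -1.32 (without the 10% of barcodes with most UMIs), -0.69 and -0.98 (ranked without Dat or Stg-1), -1.53 (mean per nucleus), -0.98 (median-of-ratios) and -0.96 (without the 50 most abundant genes). In ddH2O the value of 0.33 kept its direction in every alternative run, at 0.36 (top 500), 0.31 (top 2000), 0.32 (the study's filters), 0.18 (thinned first), 0.42 (all 3 genes), 0.28 (without deep barcodes, and ranked without Stg-1), 0.29 (mean per nucleus), 0.46 (median-of-ratios) and 0.39 (without abundant genes). The 0.37 in the pan-neuronal nuclei again comes from nuclei chosen by this sum. BRC over ddH2O, -3.14, was -2.08 (top 2000), -1.91 (without LOC726252), -1.15 (all 3 genes), -0.80 (pan-neuronal nuclei, chosen by this sum in both libraries), -3.75 (top 500), -2.48 (thinned first), -3.04 (without deep barcodes), -2.96 (without Dat), -3.27 (mean per nucleus), -3.32 (median-of-ratios) and -3.25 (without abundant genes). The share with a pan-neuronal UMI, 35.4% in BRC, was 31.4% (top 500), 49.8% (top 2000), 51.0% (without LOC726252), 78.9% (all 3 genes) and 57.8% (not thinned), and in ddH2O, 99.9%, it was 100% (top 500, all 3 genes, not thinned) and 99.2% (thinned first).

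The 3 genes higher in both libraries became 6 (top 500), 5 (top 2000), 61 (all 3 genes), 1 (without Stg-1), 6 (without LOC726252), 7 (1 CPM added) and 18 (pan-neuronal nuclei), and the 39 lower became 13 (top 2000), 3 (thinned first), 445 (all 3 genes), 9 (without deep barcodes), 16 (without Stg-1), 20 (mean per nucleus), 82 (1 CPM added) and 64 (pan-neuronal nuclei). Genes past 2-fold between the libraries, 1103 higher and 927 lower, fell to 54 and 150 (all 3 genes) and 439 and 581 (pan-neuronal nuclei), where fewer UMIs pass the minimum. In BRC, TyrR turned to 0.15 (top 2000), 0.40 (without LOC726252) and 1.08 (pan-neuronal nuclei), LOC412926 to 0.48, 0.94, 1.76, 0.68 (thinned first) and 2.22 (all 3 genes), and Dop3 to 0.48 (pan-neuronal nuclei) and 0.99 (all 3 genes). The cause of these turns was not tested, and the pan-neuronal nuclei were set against a rest that was not chosen in that way. Over the 13 alternatives, TyHyd ranged over 1.02 to 5.04 for BRC over ddH2O and 1.55 to 4.94 for ranked nuclei over the rest in ddH2O, and Vmat over -1.98 to 1.03 for BRC over ddH2O. Median-of-ratios scaling gave 929 higher and 1058 lower.

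The limits are 1 library per condition, unequal depth, doublets and background RNA that were not removed, and a selection in ddH2O that turns on few UMIs. Thinned before ranking, 902 of the 1000 ranked nuclei of BRC were chosen again, against 475 in ddH2O.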
